A study of Mus musculus with 22 samples.

Results

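Immature B cells from the spleens of Tcrd-GDL mice were compared 8 days after the first injection of diphtheria toxin, which removes gamma delta T cells in this strain according to the series design, with the same cells from untreated Tcrd-GDL mice. The comparison belongs to the second of the spleen experiments and holds 7 of the 22 libraries of the series, chosen by their labels: 2 depleted libraries (replicates 4 and 5) and 5 untreated libraries (replicates 4 to 8). Mice of the depleted group received toxin intraperitoneally at 15 ng per g of body weight, in 2 doses separated by 48 h. All 7 libraries were made from total RNA of B220+CD93+ cells and share the Tcrd-GDL allele, so only the toxin course differs by label. Tcrd-GDL is a reporter strain in which cells that express the T cell receptor delta gene also carry the diphtheria toxin receptor. Age and sex are not given in the labels, nor is it stated whether each library came from 1 animal, so the spread behind each p-value is that of these libraries and may be technical. For 3 further libraries of the same table, toxin-treated Tcrd-H2BeGFP mice, a reporter strain for which the labels name no toxin receptor, the values are given beside those of the depleted cells and are called the toxin control. Of 26097 genes in the table, 13364 had a mean normalized count of at least 10 and were tested.

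Immature B cells leave the bone marrow while their antigen receptor is still being checked for self-reactivity, and they finish their maturation in the spleen as transitional cells. The recombinase gene Rag1 and the transcription factor gene Myb are active in the youngest of these cells, and surface IgD, encoded with the constant gene Ighd, appears as they mature. Gamma delta T cells are a small population of the spleen that can release cytokines to neighbouring B cells. Glucocorticoids act on B cells through the receptor encoded by Nr3c1 and raise a known set of target genes, among them Tsc22d3, Fkbp5 and Ddit4.

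The 7 libraries held 24508546 to 36840455 reads, and Gm23935, annotated as a microRNA gene, took 10.9% to 15.0% of them. Both sorting marker genes were expressed in all of them. Cd93 lay between 905 and 1409 in the untreated libraries and at 1094 and 1187 in the depleted libraries. Ptprc, whose B220 form was the other sorting marker, lay between 17966 and 21552 in untreated libraries, with depleted replicate 4 below that range at 16884. Gamma delta T cells themselves were not part of the sort, and without Blk, which B cells express, the gamma delta marker genes summed to 1.66 to 14.6 in untreated and to 2.19 and 4.66 in depleted libraries. Trdc is not analysed here, so the removal of gamma delta T cells cannot be read from these libraries. Cd3e, a T cell marker, lay at 29.2 to 167 in untreated and at 34.0 and 81.6 in depleted libraries. The libraries were not equally far from the untreated mean. In depleted replicate 4, 1038 genes lay more than 2-fold from it, against 377 in depleted replicate 5 and 298 to 783 in each untreated library set against the other 4, the highest being untreated replicate 8.

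In depleted cells 17 genes were higher and 23 were lower than in untreated cells. The higher genes included glucocorticoid targets, inhibitors of phosphoinositide 3-kinase and antigen receptor signalling, Ighd, Bcl2 and Ston1. The lower genes included Rag1, Myb, the proliferation gene Mki67, a histone gene, the positioning receptor gene Gpr183 and 3 small nucleolar RNAs encoded side by side. A gene was called at an adjusted p under 0.05 in limma with Benjamini-Hochberg adjustment over all 13364 genes, with no minimum fold. The 40 calls are 0.299% of the genes tested (0.127% higher, 0.172% lower), and 1309 genes had an unadjusted p under 0.05. These shares stand beside every count of called list members below. The lists were chosen with earlier results of these data known, and a gene can stand in several of them. By at least 2-fold, 10 genes were higher and 12 lower. For all 40 genes both depleted libraries lay outside the range of the 5 untreated libraries, as they did for 12.3% of all tested genes. In these bulk samples, fewer cells of a type and less RNA per cell cannot be told apart.

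The size of the differences was not shared equally by both depleted libraries. Depleted replicate 4 lay further from the untreated mean than replicate 5 for 36 of the 40 called genes, 17 of 17 higher and 19 of 23 lower, and for 61.4% of all tested genes. Without depleted replicate 4 the same fit called 0 genes (749 at an unadjusted p under 0.05), and all 40 genes kept their direction. Without depleted replicate 5 it called 580 genes (4.34%), 39 of the 40 among them. With a single depleted library, both fits take its spread from the other groups. Both depleted libraries lay outside the untreated range for all 40 genes, so leaving either out could not change a direction. Leaving out untreated replicates 4, 5, 6, 7 and 8 gave 8, 18, 18, 21 and 51 calls. Leaving out toxin control replicates 1, 2 and 3, which enter only the estimate of the spread, gave 20, 18 and 20.

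**Figure D1:**
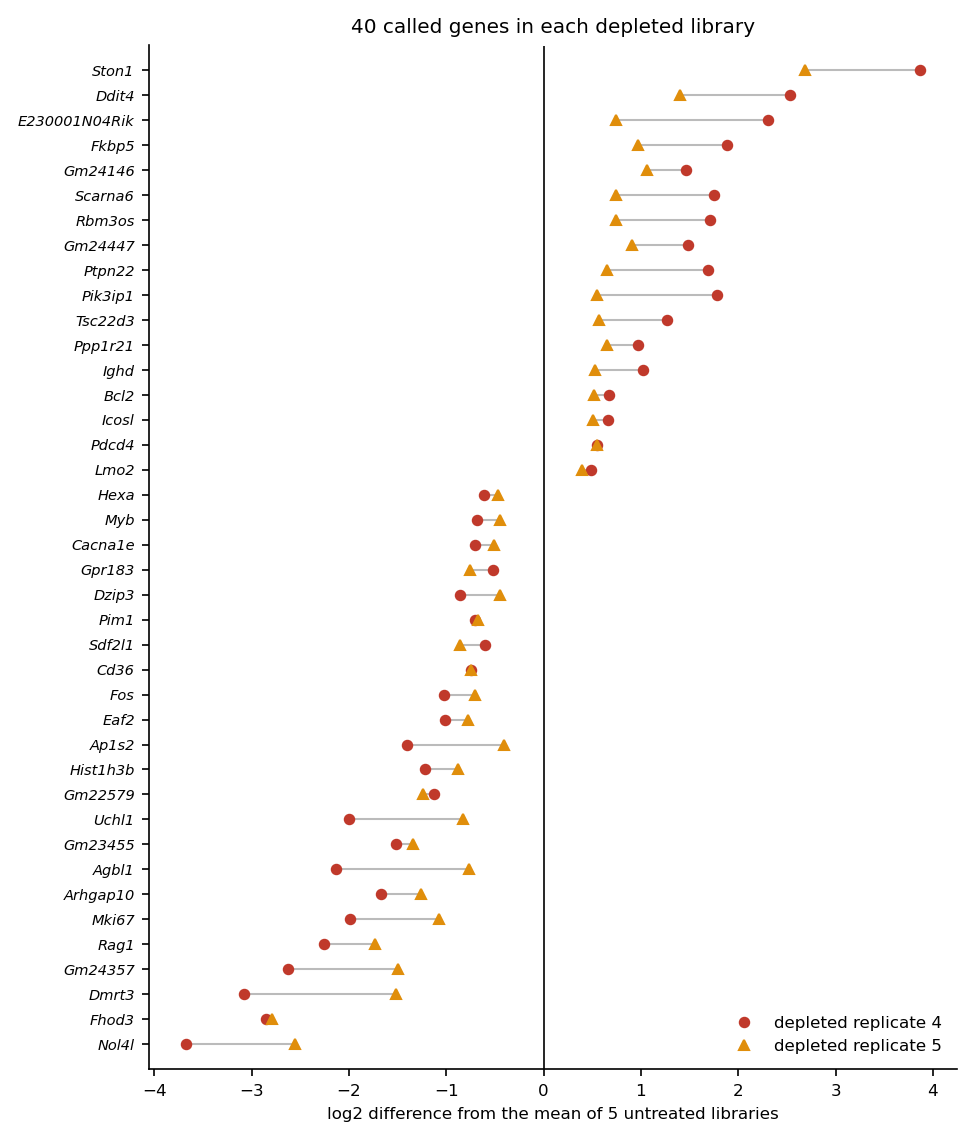
Difference of each depleted library from the mean of the 5 untreated libraries on the log2(value + 1) scale (x axis) for the 40 called genes (y axis, ordered by their fitted change). Circles are depleted replicate 4 and triangles depleted replicate 5, and in 36 of 40 genes the circle is further from 0.

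Genes that glucocorticoids induce gave 4 of the 17 higher calls. Ddit4, which encodes an inhibitor of the growth kinase complex mTORC1, had normalized counts of 284, 344, 322, 588 and 539 in untreated replicates 4 to 8 and of 2296 and 1052 in depleted replicates 4 and 5. Both depleted libraries were well above the highest untreated library, and the fitted log2 change was 1.96 ± 0.28 (SE, adjusted p 0.00957). Fkbp5, a co-chaperone of the glucocorticoid receptor, read 213, 168, 247, 277 and 273 in untreated and 857 and 455 in depleted libraries (log2 change 1.43 ± 0.23, adjusted p 0.0209). The depleted libraries again stood above all untreated ones. Pik3ip1, a membrane inhibitor of phosphoinositide 3-kinase, read 933, 994, 869, 1078 and 1129.6 in untreated and 3426 and 1459 in depleted libraries (log2 change 1.17 ± 0.21, adjusted p 0.0288). Tsc22d3, the gene of the anti-inflammatory protein GILZ, was the most abundant of them, at 5520.0, 6459, 6638, 8224 and 8372 in untreated and 16734 and 10316 in depleted libraries. Its log2 change was 0.92 ± 0.17 (adjusted p 0.0346), with no overlap between the groups.

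The other members of the glucocorticoid list did not pass the test. Of 17 tested members 4 were called higher, 0 lower, where 0.127% of all tested genes were called higher and 0.172% lower. The median log2 change was 0.35, against -0.00 over all tested genes. In depleted replicate 4 the median difference from the untreated mean was 0.79 and in replicate 5 it was 0.17. The chemokine receptor gene Cxcr4 (log2 change 0.92, adjusted p 0.174), Txnip (0.61, adjusted p 0.186) and the phosphatase gene Dusp1 (0.68, adjusted p 0.284) had positive values carried mostly by replicate 4, which lay 1.52, 1.09 and 1.27 above the untreated mean where replicate 5 lay 0.32, 0.13 and 0.08 above it. Per1 and Klf9, both direct targets of the receptor in many cells, stood at log2 changes of -0.03 and 0.11, with adjusted p-values of 0.957 and 0.912. The receptor gene Nr3c1 itself lay at 3610 to 4387 in untreated libraries and at 3232 and 4574 in depleted libraries, 1 on each side of the untreated range. Ddit4 and Pik3ip1 are also FOXO targets and stand in the list of FOXO targets and mTORC1 restraint, of which 2 of 17 tested members were called higher and the median was -0.00.

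**Figure D2:**
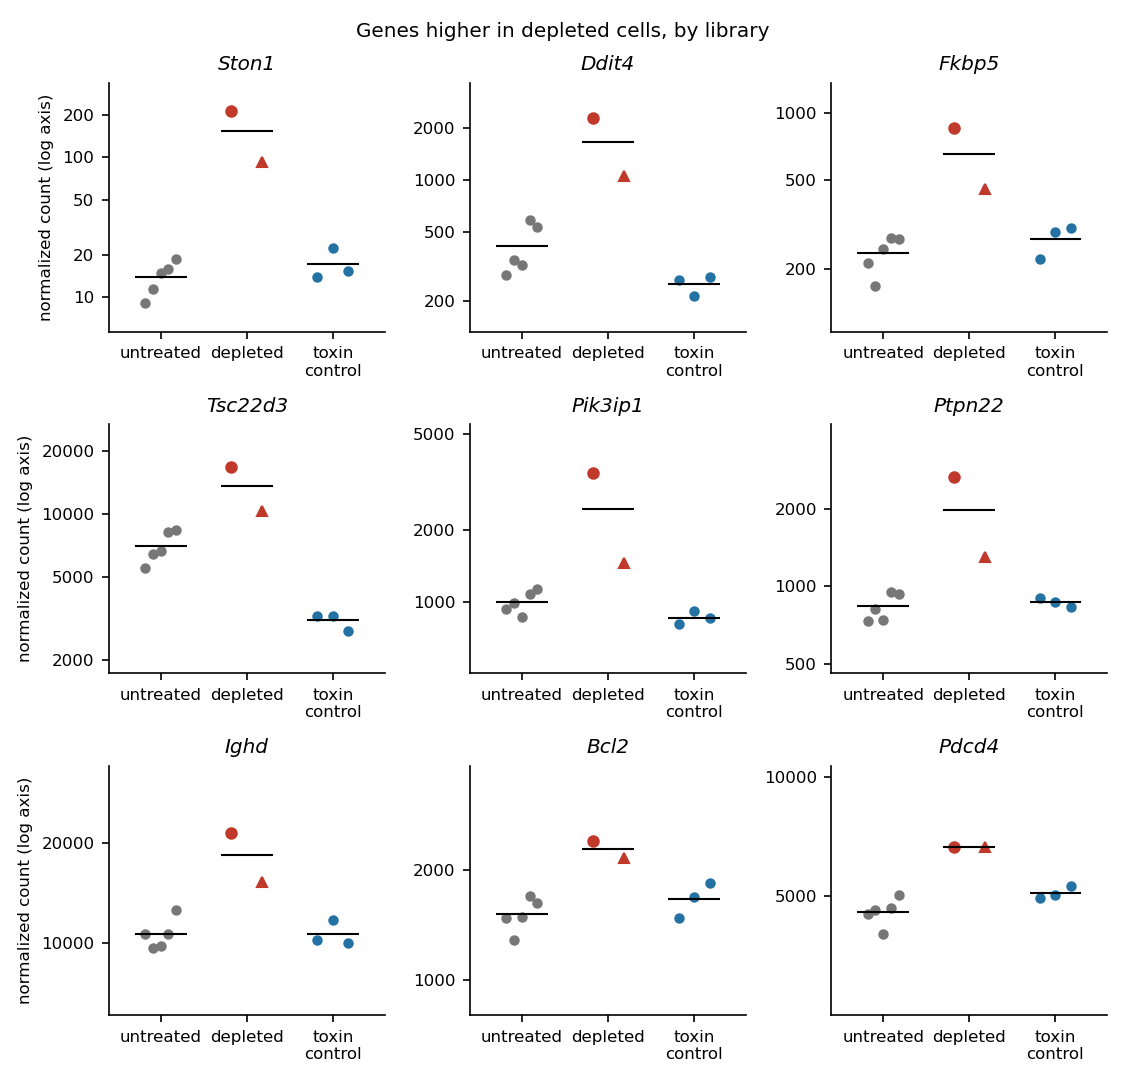
Normalized counts (y axes, log scale) of 9 genes called higher in depleted cells, in untreated, depleted and toxin control libraries, with 1 point per library and a line at the group mean. In the depleted group the circle is replicate 4 and the triangle replicate 5. Both lie above all untreated and all toxin control libraries in each panel.

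A long noncoding RNA gene next to Fkbp5 was higher as well. E230001N04Rik (chr17:28522720-28525398, plus strand, GRCm38) starts 5192 bases beyond the start of Fkbp5 (chr17:28399094-28517527, minus strand) and points away from it. It read 122, 123, 161, 131 and 186 in untreated libraries and 706 and 239 in depleted libraries, a log2 change of 1.52 ± 0.30 (adjusted p 0.0403). Depleted replicate 4 was far above all others, while replicate 5 exceeded the highest untreated library by a smaller margin.

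Ston1 had the largest log2 change of all higher genes. It encodes stonin 1, a relative of endocytic adaptor proteins, and read 9.12, 11.5, 15.0, 16.0 and 18.9 in untreated and 214 and 93.3 in depleted libraries (log2 change 3.28 ± 0.43, adjusted p 0.00555). The gene was barely expressed in every untreated library and clearly expressed in both depleted ones. Its upstream neighbour Ppp1r21, which encodes an endosomal protein, was called higher too, at 1040.0, 941, 1125, 1399.9 and 1209.7 in untreated and 2218 and 1782 in depleted libraries (log2 change 0.81 ± 0.13, adjusted p 0.0209). Both genes lie on the plus strand of chromosome 17, Ppp1r21 at 88530118 to 88588367 and Ston1 at 88597684 to 88662586, with a gap of 9316 bases. Of the other called genes, only the Fkbp5 pair and the 3 small nucleolar RNAs described below lay within 20 kb of another called gene.

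Brakes on antigen receptor signalling gave 2 higher calls of 19 tested members, Ptpn22 and Pik3ip1. Ptpn22, a tyrosine phosphatase that dampens signals from the antigen receptor, read 734, 816, 741, 955 and 935 in untreated and 2675 and 1305 in depleted libraries (log2 change 1.17 ± 0.19, adjusted p 0.0209). The groups did not overlap, and replicate 4 was again far above replicate 5. The inhibitory receptor gene Lair1 had a log2 change of 1.38 (adjusted p 0.280), with untreated libraries between 26.2 and 142 and the depleted libraries at 219 and 105, so that its groups overlapped. The median of the list was -0.02, close to that of all tested genes, and the core genes of B cell receptor signalling had 0 calls of 20 tested members and a median of -0.08.

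Ighd and Bcl2 were higher by less than 2-fold. Ighd, the constant gene of IgD, read 10618, 9662, 9757, 10605 and 12541 in untreated and 21464 and 15303 in depleted libraries (log2 change 0.78 ± 0.13, adjusted p 0.0209). The survival gene Bcl2 read 1478, 1287, 1488, 1704 and 1626 in untreated and 2410.0 and 2159.8 in depleted libraries (log2 change 0.60 ± 0.12, adjusted p 0.0392). For both genes the depleted libraries lay above the highest untreated library, and for Bcl2 they lay close to each other. They were the 2 called members among 13 tested genes of follicular maturation, whose median was -0.04, and the third by p, the egress receptor gene S1pr1, had a log2 change of -0.35 (adjusted p 0.163). Ighm, the constant gene of IgM, lay at 73474 to 95284 in untreated and at 63607 and 82081 in depleted libraries (log2 change -0.22, adjusted p 0.724). Bcl2 was also the 1 call among 14 tested genes of the BCL2 family, whose median was -0.06.

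For the remaining higher coding genes the depleted libraries lay close to each other. Icosl, the ligand by which B cells engage ICOS on T cells, read 1674, 1536, 1879.6, 1973 and 1842 in untreated and 2802 and 2526 in depleted libraries (log2 change 0.58 ± 0.10, adjusted p 0.0254). Pdcd4, an inhibitor of translation initiation, had depleted values of 6674 and 6669.6 against 4002 to 5043 in untreated libraries (log2 change 0.55 ± 0.09, adjusted p 0.0209). Lmo2, a transcriptional cofactor of blood cell development, had depleted values of 2856 and 2660.2 against 1924 to 2117 (log2 change 0.44 ± 0.09, adjusted p 0.0392), the smallest change that was called.

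Rag1 and Myb, genes of the youngest B cells, were lower. Rag1, which starts recombination of antigen receptor genes, read 209.8, 299, 94.8, 171 and 169 in untreated and 36.2 and 52.5 in depleted libraries (log2 change -1.99 ± 0.30, adjusted p 0.013). Myb, a transcription factor gene of progenitors, read 1614, 1315, 1678, 1417 and 1489 in untreated and 929.8 and 1095 in depleted libraries (log2 change -0.57 ± 0.11, adjusted p 0.0403). All untreated libraries were above both depleted ones for each gene, and the untreated values of Rag1 themselves were widely spread. Of 10 tested genes of early immature and transitional B cells these 2 were called lower and 0 higher, with a median of -0.35 (-0.49 in depleted replicate 4 and -0.21 in replicate 5). Values were negative for 7 of the 10 and positive for 3. The positive ones were Dntt (log2 change 1.01, adjusted p 0.763), Il7r (0.32, adjusted p 0.850) and Lef1 (0.04, adjusted p 0.956). Cd24a, a surface marker that declines with maturation, had a log2 change of -0.63 (adjusted p 0.102), and Sox4, a transcription factor gene of early B cells, of -0.35 (adjusted p 0.280). Cd93, the marker by which the cells were sorted, had a log2 change of -0.04 (adjusted p 0.955).

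Most mitosis genes had negative values, and 1 of them passed the test. Mki67, which encodes the proliferation antigen Ki-67, read 169, 178, 119.7, 184 and 233 in untreated and 42.8 and 81.6 in depleted libraries (log2 change -1.53 ± 0.28, adjusted p 0.0288). It was the 1 call among 21 tested mitosis genes, of which 18 had a negative value. The median of the list was -0.65 (-0.98 in depleted replicate 4 and -0.40 in replicate 5). The spindle motor genes Kif23 and Kif11 followed, with log2 changes of -0.83 and -1.17 (adjusted p 0.0716 and 0.199), while Cdc20 had a value of 0.51 (adjusted p 0.541). Hist1h3b, a histone H3 gene expressed with DNA replication, read 639, 412, 555, 679 and 642 in untreated and 248 and 314 in depleted libraries (log2 change -1.05 ± 0.21, adjusted p 0.0434). It has near-identical copies, so that its count is uncertain, and it was the 1 call among 32 histone genes with a median of -0.03 (0.19 in depleted replicate 4 and -0.35 in replicate 5). None of 27 tested DNA replication genes was called by limma (median -0.14), and the replication licensing gene Cdc6 had the lowest p of them (log2 change -1.39, adjusted p 0.151).

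**Figure D3:**
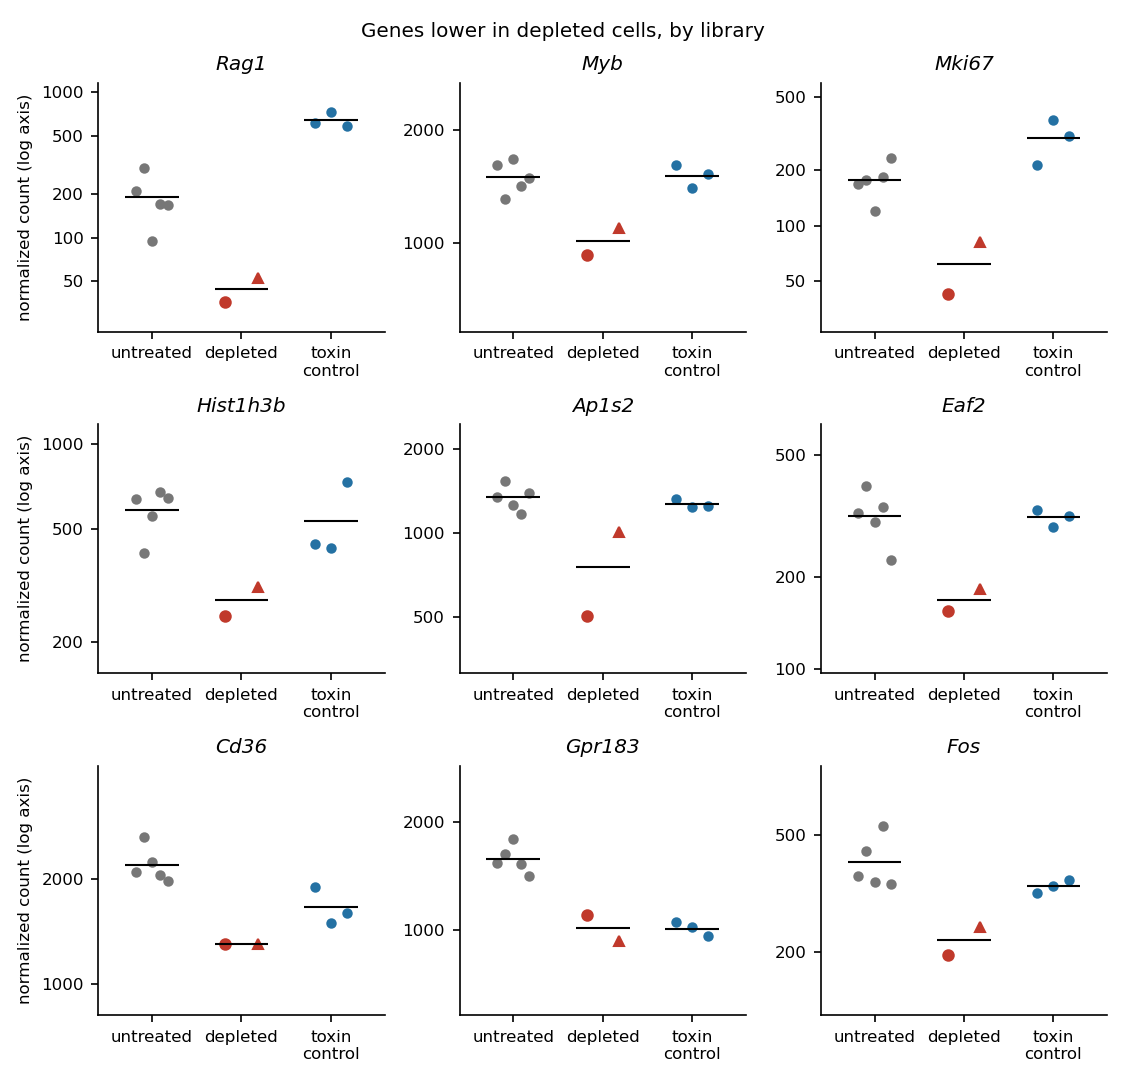
Normalized counts (y axes, log scale) of 9 genes called lower in depleted cells, in untreated, depleted and toxin control libraries, with 1 point per library and a line at the group mean. In the depleted group the circle is replicate 4 and the triangle replicate 5. Both lie below all untreated libraries in each panel, and for Gpr183 they lie around the toxin control libraries.

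Receptors, kinases and early response genes followed among the lower calls. Gpr183, an oxysterol receptor that places B cells in the spleen, read 1533, 1632, 1786, 1528 and 1416 in untreated and 1101 and 932 in depleted libraries (log2 change -0.64 ± 0.11, adjusted p 0.0209), and it was the 1 call among 16 tested positioning and homing receptors (median -0.03). Cd36, a fatty acid and scavenger receptor, read 2094, 2644, 2234, 2058 and 1979 in untreated and 1304 and 1303 in depleted libraries (log2 change -0.75 ± 0.12, adjusted p 0.0177). On the log2 scale the depleted values of Cd36 were closer to each other than those of any other lower gene. Pim1, a survival kinase gene that STAT factors induce, read 1658, 1731, 1372, 1286 and 1336 in untreated and 897 and 919 in depleted libraries (log2 change -0.69 ± 0.13, adjusted p 0.0353). It was the 1 call among 13 tested cytokine and STAT targets (median -0.13), of which Il2ra, a chain of the interleukin-2 receptor, had a log2 change of -1.03 (adjusted p 0.0716). Fos, an AP-1 subunit gene that signals induce within minutes, read 364, 443, 347, 537 and 340.1 in untreated and 196 and 245 in depleted libraries (log2 change -0.86 ± 0.17, adjusted p 0.0434). It was the 1 call among 17 tested immediate early genes (median -0.03).

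Ap1s2, Eaf2, Sdf2l1 and Hexa were lower as well. Ap1s2, a subunit of the clathrin adaptor AP-1, read 1346, 1531, 1261, 1165 and 1391 in untreated and 502 and 1006 in depleted libraries (log2 change -0.91 ± 0.18, adjusted p 0.0434), with replicate 4 at the far lower value. Eaf2, a partner of the transcription elongation factor ELL, read 325, 396, 302, 338 and 226 in untreated and 155 and 182 in depleted libraries (log2 change -0.89 ± 0.18, adjusted p 0.0466), and was the 1 call among 10 tested plasmablast genes. Sdf2l1, a chaperone partner of the endoplasmic reticulum, read 347, 380.1, 433, 337 and 333 in untreated and 239 and 201 in depleted libraries (log2 change -0.73 ± 0.15, adjusted p 0.0434). It was the 1 call among 23 tested genes of the unfolded protein response, 17 of them negative, with a median of -0.18. Hexa, a lysosomal hexosaminidase, had a smaller log2 change of -0.54 ± 0.11 (adjusted p 0.0403), at 707 and 783 against 984 to 1218.

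Several lower genes with large changes were low in level. Arhgap10, a GTPase-activating protein gene, read 68.0, 102, 89.8, 69.5 and 88.7 in untreated and 25.2 and 33.8 in depleted libraries (log2 change -1.47 ± 0.26, adjusted p 0.0254). Agbl1, a carboxypeptidase gene, read 172, 171, 179.6, 135 and 137 in untreated and 35.1 and 92.1 in depleted libraries (log2 change -1.45 ± 0.27, adjusted p 0.0346). Uchl1, a ubiquitin hydrolase gene, read 114, 112, 105, 88.2 and 102 in untreated and 25.2 and 58.3 in depleted libraries (log2 change -1.41 ± 0.27, adjusted p 0.0353). Each had no overlap between groups, and for Agbl1 and Uchl1 replicate 5 lay between replicate 4 and the untreated libraries. Cacna1e, a calcium channel gene, and Dzip3, a ubiquitin ligase gene, were better expressed and changed less (log2 change -0.60 ± 0.10 and -0.65 ± 0.12, adjusted p 0.0209 and 0.035).

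The lowest log2 changes rested on few reads. Nol4l had 1 read in the depleted libraries together and 59 in the untreated libraries. With the scaling factor of each library taken into account, the ratio of untreated to depleted was 21.4 (95% exact interval 3.69 to 859, counting error only). Fhod3, a formin gene, had 4 and 112 reads (ratio 10.2, interval 3.86 to 37.9), and Dmrt3, a transcription factor gene, had 13 and 185 (ratio 5.16, interval 2.95 to 9.88). Their fitted log2 changes were -3.12 ± 0.61, -2.82 ± 0.48 and -2.30 ± 0.43 (adjusted p 0.0395, 0.0209 and 0.0346). Both depleted libraries were below every untreated library for each of them.

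The 3 lower small nucleolar RNAs lie next to each other in the host gene Taf1d (chr9:15306214-15316991, plus strand, GRCm38), which encodes a subunit of an RNA polymerase I factor. Small nucleolar RNAs guide the modification of ribosomal RNA and are mostly cut from introns. No protein-coding transcript of Taf1d has an exon over any of the 3. Of its 16 transcripts, 1 other has an exon over Gm24357, 2 over Gm23455 and 1 over Gm22579. Reads of those transcripts may enter the counts, and their part was not tested. Gm24357 carries the C box TGATGA and the D box CTGA that mark guides of ribose methylation. Gm23455 and Gm22579 end with the ACA that marks guides of pseudouridylation. Their sequences are shown because they form the block of neighbouring genes that fell together, with these boxes in capitals, and are read from the plus strand of GRCm38 at chr9:15315522-15315595, chr9:15316489-15316588 and chr9:15316676-15316808.
Gm24357: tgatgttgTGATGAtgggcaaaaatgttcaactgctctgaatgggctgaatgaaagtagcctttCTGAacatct
Gm23455: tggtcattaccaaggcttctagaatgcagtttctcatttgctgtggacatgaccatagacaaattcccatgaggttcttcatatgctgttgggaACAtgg
Gm22579: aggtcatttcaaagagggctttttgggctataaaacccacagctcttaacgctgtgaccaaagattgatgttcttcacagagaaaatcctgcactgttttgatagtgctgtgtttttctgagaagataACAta

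Gm24357 read 1110.5, 1486, 1439, 1479 and 844 in untreated and 201 and 439.7 in depleted libraries, a log2 change of -2.06 ± 0.26 (adjusted p 0.00549). Gm23455 read 1506, 2159, 2154, 2072 and 1123 in untreated and 612 and 688 in depleted libraries (log2 change -1.43 ± 0.21, adjusted p 0.00957). Gm22579 read 177, 203, 283, 266 and 186 in untreated and 99.8 and 92.1 in depleted libraries (log2 change -1.18 ± 0.21, adjusted p 0.024). Each had its depleted libraries below all untreated ones, and for Gm23455 and Gm22579 the depleted libraries lay near each other. The 5 tested small nucleolar RNAs that lie before them in Taf1d were not called, with log2 changes of 0.02 (Gm25500), 0.19 (Gm24455), 0.09 (Gm24299), 0.65 (Gm25791) and 0.71 (Gm22620). Taf1d itself read 1529.9 to 2004 in untreated and 2609.5 and 1625 in depleted libraries (log2 change 0.19, adjusted p 0.735). Among all 149 tested small nucleolar RNAs these 3 were the only calls in limma, and 77.2% of the 149 had a positive value, with a median of 0.45 (0.88 in depleted replicate 4 and 0.02 in replicate 5).

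**Figure D4:**
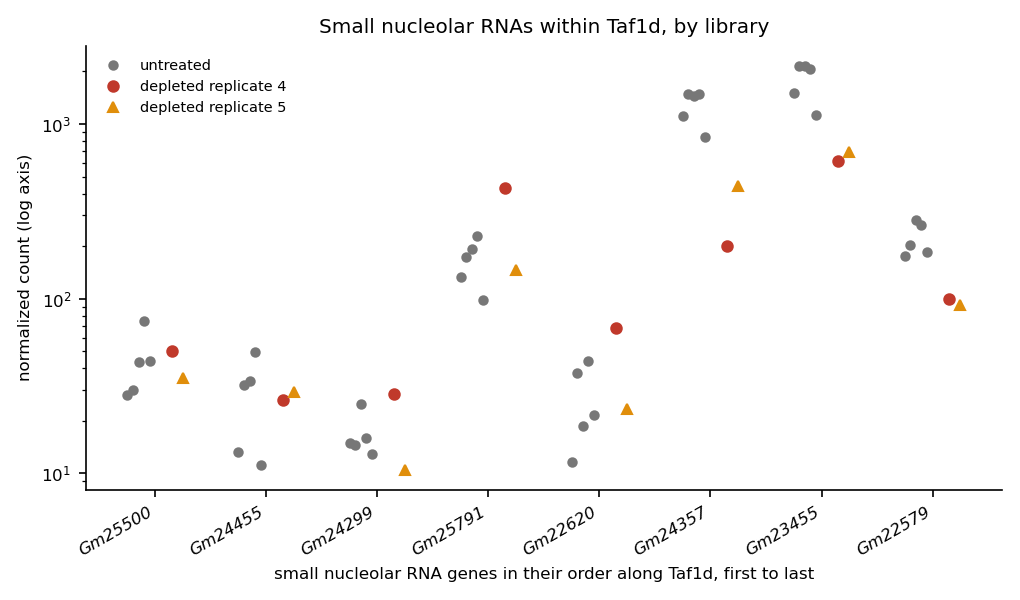
Normalized counts (y axis, log scale) of the 8 tested small nucleolar RNA genes within Taf1d in their order along the gene (x axis), with 1 point per library. The depleted libraries lie below all untreated libraries for the last 3 genes (Gm24357, Gm23455 and Gm22579) and among or above them for most points of the first 5.

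Other noncoding RNAs were higher. Scarna6, a small RNA of Cajal bodies, where such RNAs guide the modification of spliceosomal RNAs, read 331, 473, 625, 616 and 399 in untreated and 1604 and 798 in depleted libraries (log2 change 1.25 ± 0.25, adjusted p 0.0434). It is shown beside the lower small nucleolar RNAs because it has the same C and D boxes (in capitals) and moved the other way. It lies at chr1:87784556-87784820 on the plus strand of GRCm38.
Scarna6: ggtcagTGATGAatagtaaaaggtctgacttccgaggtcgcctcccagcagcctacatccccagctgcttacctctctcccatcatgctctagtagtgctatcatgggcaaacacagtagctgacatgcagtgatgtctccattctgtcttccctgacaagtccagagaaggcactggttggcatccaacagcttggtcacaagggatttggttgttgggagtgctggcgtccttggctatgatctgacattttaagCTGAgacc
Gm24146 and Gm24447, annotated as separate genes, are copies of the 7SK RNA that restrains transcriptional elongation. Over the first 230 bases they are 97.4% and 100% identical to Rn7sk, so reads may be shared between them and their counts are uncertain. Their depleted values of 701 and 533 (Gm24146) and of 1376 and 922 (Gm24447) lay above untreated ranges of 175 to 339 and 352 to 659.9 (log2 change 1.26 ± 0.23 and 1.20 ± 0.23, adjusted p 0.0346 and 0.0353). Rn7sk itself read 189129 to 424542 in untreated and 687091 and 560911 in depleted libraries (log2 change 0.88, adjusted p 0.309). Rbm3os, on the opposite strand of the cold-inducible gene Rbm3, read 181, 161, 189.6, 207 and 128 in untreated and 564 and 288 in depleted libraries (log2 change 1.23 ± 0.23, adjusted p 0.0353). Rbm3 had a log2 change of 1.01 (adjusted p 0.0707), and reads of the pair cannot be told apart, since the sources used here do not say whether counting was stranded. The 17 small Cajal body RNAs had a median log2 change of 0.57 (1.09 in depleted replicate 4 and 0.37 in replicate 5), while the 10940 protein-coding genes had a median of -0.01, and the part of RNA composition in these calls was not tested.

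Many lists had 0 members called by limma, and in several of them the depleted libraries did not point the same way. Of 31 type I interferon response genes 28 had a negative value, with a median of -0.27, yet the median was -0.66 in depleted replicate 4 and 0.01 in replicate 5. Oas2, an antiviral synthetase gene, had the lowest p (log2 change -1.07, adjusted p 0.138), and Ifit1 lay 1.22 below the untreated mean in replicate 4 and 0.79 above it in replicate 5. Interferon gamma-induced GTPase genes split in the same manner, at -0.49 and 0.18 in depleted replicates 4 and 5. Ribosomal protein genes had positive values in 41 of 42 members and a median of 0.17, at 0.36 in replicate 4 and -0.06 in replicate 5. Heat shock genes had medians of -0.54 and 0.10. MHC class II genes had a median above 0 in both depleted libraries (0.30 and 0.04), with 11 of 14 members positive and 3 negative in the fit. H2-Oa had a log2 change of 0.30 (adjusted p 0.382). The p53 targets had a median below 0 in both depleted libraries (-0.35 and -0.11), with 15 of 20 members negative and 5 positive in the fit. Lists of the marginal zone, of BAFF and CD40 signalling, of Toll-like receptors and of B lineage transcription factors had medians between -0.03 and 0.01.

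Genes of other cells were also read in the same libraries, in normalized counts summed over each marker list. The 21 T cell markers summed to 6123 to 7422 in untreated and to 6249 and 6632 in depleted libraries, both within the untreated range. Cd3e, at 29.2 to 167 in untreated libraries, was a small part of that sum, which rested mostly on other listed genes. The sum need not follow the number of T cells in the libraries. Natural killer and cytotoxic markers (12 genes) summed to 179 to 765 and to 169 and 285, and macrophage markers (13 genes) to 876 to 1831 and to 979 and 1530.1. Neutrophil markers (11 genes, 1 of them at 0 in all 7 libraries) were lower without overlap, at 13.4 to 187 in untreated and at 8.77 and 7.00 in depleted libraries, and S100a8 was at 0 in depleted replicate 4. Plasmacytoid dendritic cell markers (8 genes) summed to 453 to 979 in untreated and to 1262 and 727 in depleted libraries, and all 8 had positive values (median 1.35), among them Siglech at a log2 change of 2.25 (adjusted p 0.157). Erythroid markers (10 genes) summed to 1105 to 2733 and to 4661 and 611, a split between the depleted libraries. Over the 7 libraries the highest T cell, natural killer, macrophage and neutrophil sums were in untreated replicate 8 and the highest plasmacytoid dendritic and erythroid sums in depleted replicate 4. With the mean log2 level of the T cell markers as a covariate the fit called 81 genes, all 40 of the called genes among them, and the part of the other lists in the calls was not tested. Xist lay at 18895 to 30333 in untreated and at 22071 and 28059 in depleted libraries.

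The toxin control shows where the called genes lay in toxin-treated mice of the other strain. It was itself far from the untreated cells, with 2093 of the 13364 tested genes (15.7%) called between them in limma. Both sorting marker genes lay above the untreated range there. Cd93 read 1757, 2200 and 2290 against 905 to 1409, and Ptprc 23948, 28870 and 26141 against 17966 to 21552. None of the 17 higher genes had its 3 toxin control libraries above the untreated range. For 7 of them, Ddit4, E230001N04Rik, Gm24146, Scarna6, Gm24447, Tsc22d3 and Lmo2, all 3 lay below it, and for 10 they overlapped it. How many of all tested genes lie in such positions was not computed. These counts, and those for the lower genes below, therefore cannot be read as particular to the called genes. Tsc22d3 read 3271, 3253 and 2775 in the toxin control, the farthest of them from the untreated libraries. Of the 23 lower genes, 7 had all 3 toxin control libraries below the untreated range, on the side of the depleted cells. These were Gpr183 (1051, 1020.0 and 963), Cd36 (1897, 1494 and 1603), Hexa, Sdf2l1 and the small nucleolar RNAs Gm24357 (719, 489.5 and 519), Gm23455 (1106, 860.3 and 812) and Gm22579 (138, 118 and 118). Only Gm24357 of these 7 was also called lower against the toxin control (log2 difference -0.93, adjusted p 0.047). For Rag1 (611, 726 and 581), Agbl1 (218, 257 and 235) and Uchl1 (118, 119.8 and 121) all 3 lay above the untreated range, on the other side. Against the toxin control itself, 17 of 17 higher and 16 of 23 lower genes were called in the same direction, in a comparison with 9.07% of all genes called. Both comparisons use the same depleted libraries, so these calls are not separate evidence. Between the depleted cells and the toxin control, strain and depletion cannot be told apart.

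Experiment 1 of the series made the same comparison on other libraries, 3 depleted and 3 untreated, in a table that was normalized separately. Its depleted replicate 1 stood apart from the others, with Gm23935 at 28.7% of its reads and Xist at 3.06. Xist lay at 9304 to 10639 in the untreated libraries and at 9866 and 9333 in depleted replicates 2 and 3. Of the 40 called genes 37 were tested there, and 34 had the same sign, a share of 91.9% against 63.7% of all genes tested in both. Leaving out each library of experiment 1 in turn gave 30 to 34 of 37, against 59.1% to 64.6% of all genes tested in both. In experiment 1 limma called 0 of 11701 genes, with 8.83% at an unadjusted p under 0.05. Of the 37 genes, 11 had the same sign at an unadjusted p under 0.05 (29.7%, against 7.00% of all genes) and 0 the opposite sign. Without depleted replicate 1 limma called 1097 genes (9.38%), and 22 of the 37 were called in the same direction (59.5%, against 8.03% of all genes tested in both). That count was 0 of 37 with any other single library of experiment 1 left out, where it was also 0 of all 11687 genes tested in both. The 11 genes at an unadjusted p under 0.05 became 27 without depleted replicate 1, 6 and 10 without depleted replicates 2 and 3, and 7, 6 and 6 without untreated replicates 1, 2 and 3.

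Gene by gene, both experiments differed in what they shared. Ston1 read 13.1, 29.1 and 19.5 in the untreated and 13.8, 238 and 91.8 in the depleted libraries of experiment 1, so that replicates 2 and 3 were far above the untreated libraries and replicate 1 was among them. Its log2 change there was 1.74 ± 0.81 with all 3 libraries and 2.86 without replicate 1. Ap1s2 had the lowest p of the 37 genes, at 317, 326 and 315 in untreated and 209.5, 156 and 153 in depleted libraries (log2 change -0.90 ± 0.15). Rag1 read 38.8, 32.7 and 53.4 in untreated and 42.8, 13.7 and 8.42 in depleted libraries (log2 change -1.20 ± 0.51), Myb had a log2 change of -0.79 ± 0.21, and Gm24357 and Gm23455 had -0.90 ± 0.29 and -0.86 ± 0.35. Icosl (0.57 ± 0.15), E230001N04Rik (1.00 ± 0.28), Fkbp5 (0.63 ± 0.23) and Lmo2 (0.40 ± 0.14) were the higher genes with an unadjusted p under 0.05. Ddit4, in contrast, had 489.6 to 523 in untreated and 427, 504 and 772 in depleted libraries (0.11 ± 0.19), and Tsc22d3 had a value of -0.01 ± 0.31 (0.44, adjusted p 0.00266 in limma, without replicate 1). Gpr183 (0.03 ± 0.16), Fos (0.06 ± 0.14), Pim1 (-0.01 ± 0.12) and Cd36 (-0.05 ± 0.26) had values within 1 SE of 0. Without replicate 1, Cd36 was called lower there as well (log2 change -0.41, adjusted p 0.0377), and Gpr183, Fos and Pim1 were not called (-0.17, 0.07 and 0.07). Whether any gene differed between the experiments was not tested.

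**Figure D5:**
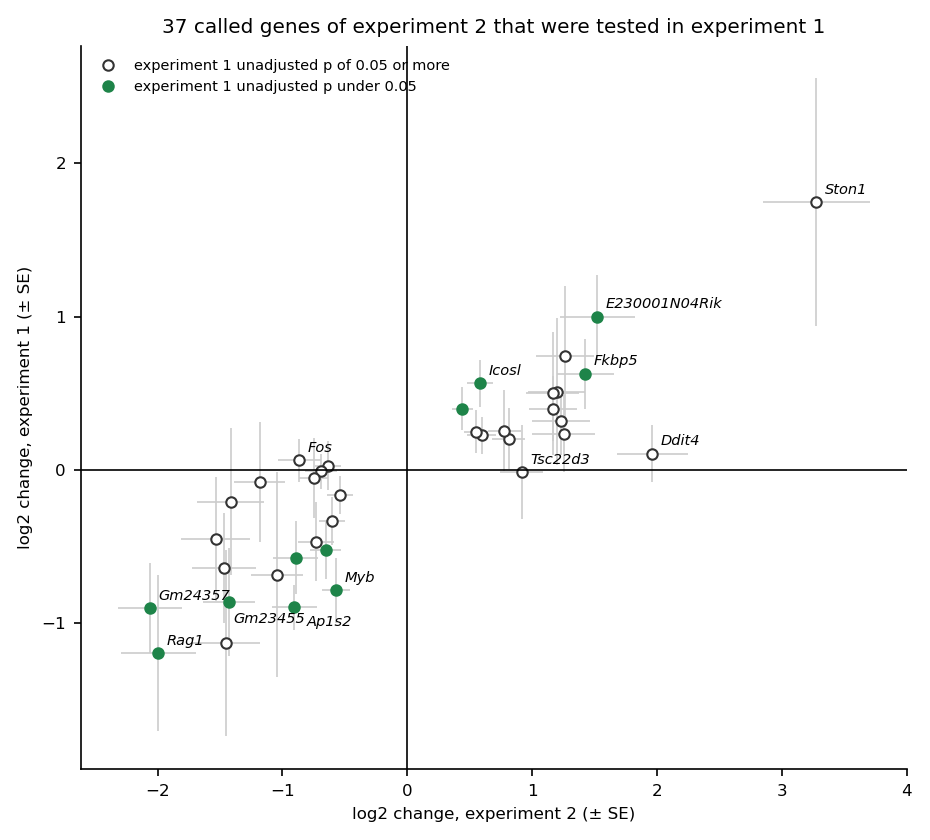
Log2 change of depleted against untreated cells in experiment 2 (x axis) and in experiment 1 (y axis) for the 37 called genes tested in both, with bars of 1 SE. Filled points had an unadjusted p under 0.05 in experiment 1. Both changes have the same sign for 34 of 37 genes, and Ddit4 and Tsc22d3 lie near 0 on the y axis.

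The threshold ran through a continuous range of values. The call nearest to it was Eaf2 (adjusted p 0.0466), and just outside lay Thbd, Rapgefl1 and 5830444B04Rik (adjusted p 0.0514 each, log2 change -1.20, -2.21 and 1.96), Dcaf12 (0.0564, -0.47) and Kbtbd11 (0.0585, 0.63).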

How the data were processed

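Per the labels' protocols, sorted splenic immature B cells were extracted with an RNeasy Plus Micro kit, and libraries of total RNA were prepared with a SMART-Seq Stranded kit. How fully small RNAs were recovered in each library was not tested. Per the submitters' processing notes, bcl2fastq and STAR 2.5.2b were used with mm10. Not given in the sources used here are the scaling method, the annotation, the counting tool and whether it used strand. The table deposited by the authors holds a signal, normalized gene counts, that is each gene's count divided by 1 factor per library; 100% of values came out as whole reads within 0.01, and recomputed size factors were 1.002 to 1.007. All columns belong to labelled samples. Of the gene identifiers, 98.8% were found in GENCODE M21 (GRCm38), the source of coordinates and sequences.

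The 10 libraries of experiment 2 were fitted together as 3 groups on log2(value + 1), where changes of low genes come out too small, using lmFit and a trended eBayes in limma 3.58.1 under R 4.3.3. Genes needed a mean of at least 10, and p-values were adjusted over all of them at a threshold of 0.05, with no covariate or block. limma was tested on simulated data first. Experiment 1 was fitted in the same way on its own table. Each library counted once, since the chi-square per degree of freedom of the 14 replicate pairs was at least 8.815 (Spearman's rho across genes 0.979 to 0.991). Counting error was 5.27% at the median tested gene and 32.4% at a mean of 10.

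Every called gene could be named. Of those with a mean of at least 50, up to 10 highest and 10 lowest changes were given in full, leaving out variable segments, predicted genes and small RNAs. The called members and up to 3 members with the smallest p were named from the 39 gene lists, and other members and the small RNA genes were named after their values had been seen. Lists are described by counts and medians beside all tested genes, with no set test. The comparison, its genes and the lists were chosen with earlier results of these data known. edgeR 4.0.16 and DESeq2 1.42.0 on the recovered reads, other pseudocounts, filters and scalings, a T cell term, a replicate block and leaving out each library were run as alternatives.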

Additional observations from a re-analysis of the deposited data

Results flagged for a closer look

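Among 134 genes examined for a library that stands apart from the rest of the untreated group, 2 were found. This is fewer than chance gives, at about 1 in 20 groups. Ddit3, a stress response transcription factor gene, read 191 in untreated replicate 5 and 229 to 243 in the other untreated libraries. Klf3, a transcription factor gene of B cell maturation, read 2141 in untreated replicate 8 and 1524 to 1682 in the others. Fosb, an AP-1 subunit gene, had opposite directions in the experiments, with a log2 change of -0.87 in experiment 2 and of 0.33 in experiment 1. Every depleted library lay on its experiment's side of the untreated mean, and the difference between the experiments was not tested.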

How the results depend on the processing

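All 40 called genes kept their direction in every alternative that tested them (36 of them with a minimum mean of 50). For all 40 both depleted libraries lay outside the untreated range. Leaving out a library or changing the pseudocount therefore could not change a direction, and the kept directions are no separate support. The number of calls depended on the model. DESeq2 called 138 genes (76 higher, 62 lower, 38 of the 40 among them), a T cell marker covariate gave 81 (40 and 41), the 2 compared groups alone gave 5 (2 and 3) and a fit with no variance trend gave 3 (1 and 2). The edgeR quasi-likelihood test called 51 genes but split them as 36 higher and 15 lower, 70.6% higher against 42.5% by limma. Leaving out 1 library gave 0 to 580 calls, 0 to 227 higher and 0 to 353 lower. TMM scaling (43), quantile normalization (34), pseudocounts of 0.5 and 5 (40 and 41), a minimum mean of 50 (32) and no filter (38) moved the count by less than 1.5 times. Replicates 4 and 5 share only their numbers across groups: the deviations of same-numbered libraries had correlations of -0.070 and -0.105, and a replicate block gave 152 calls (76 and 76). Ston1 lost its call only without depleted replicate 4, and Ddit4, Gm23455, Gm24357 and Cd36 lost theirs there and with no variance trend. The cause of these shifts was not tested. At a mean of 10, counting error alone limits the precision to 32.4%.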

Other observations

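Some genes outside the calls had sizeable values, and none of those named here passed the test. Cirbp, a cold-inducible RNA-binding protein gene like Rbm3, read 338 to 745 in untreated and 2168 and 724 in depleted libraries (log2 change 1.20, adjusted p 0.156), so that the value of depleted replicate 5 lay inside the untreated range. Rmrp, the RNA of the nuclease RNase MRP, had a log2 change of 1.10 (adjusted p 0.0952), with both depleted libraries above all untreated ones. Abca1, a cholesterol exporter, had a log2 change of 0.48 (adjusted p 0.15), at 3909.9 and 3433 in depleted against 2362 to 3096 in untreated libraries. Plac8, a gene of the marginal zone list, had a log2 change of -0.55 (adjusted p 0.186), with both depleted libraries, at 4521 and 4269.6, below the untreated range of 4623 to 8298. Socs2, a feedback inhibitor of cytokine receptors, was at 0 and 17.5 in depleted replicates 4 and 5 and at 16.0 to 38.5 in untreated libraries (log2 change -2.59, adjusted p 0.210).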
